A study of Mus musculus with 14 samples.

Results

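A set of 10 genes of bone-forming cells were followed in the intervertebral discs (IVDs) of 2 mouse models of type 2 diabetes. They were chosen by name as 10 of the 55487 genes counted, and all 10 passed the filter on low counts that left 16915 genes for testing. The genes are *Bglap* and *Bglap2* (osteocalcin), *Ibsp* (bone sialoprotein), *Spp1* (osteopontin), *Dmp1*, *Mepe*, *Phex*, *Sp7* (osterix), *Alpl* (tissue-nonspecific alkaline phosphatase) and *Ank* (the pyrophosphate exporter).

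Caudal discs were collected from 14 male mice, with 5 discs pooled per mouse, so each library is 1 mouse. The db/db mice (n = 3) are homozygous for a mutation of the leptin receptor *Lepr* in all cells, their db/+ littermates (n = 3) are heterozygous for the same mutation and neither group was treated, and both were 3 months old. The STZ-HFD mice (n = 4) are C57BL/6J mice, 12 weeks old at the start, that ate a high-fat diet (the labels and the methods differ on its fat content) for 4 to 6 weeks, received streptozotocin (STZ), a toxin of pancreatic beta cells, at 100 mg/kg, and stayed on the diet for 12 more weeks. The Con+Veh mice (n = 4), which the labels call wild type, are C57BL/6J mice that ate standard chow and received the citrate vehicle on the same schedule. The db/+ and db/db mice therefore differ from the other cohort in age, in stock and in handling, and these cannot be told apart from each other in any comparison between cohorts.

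Osteoblasts secrete a collagen-rich matrix and then mineralise it, and osteocytes are the cells that become buried in that matrix. Mineral forms where phosphate is plentiful and its inhibitor pyrophosphate is scarce, which alkaline phosphatase promotes by cleaving pyrophosphate and ANK opposes by letting pyrophosphate out of the cell. Bone sialoprotein, osteopontin, DMP1 and MEPE are acidic secreted phosphoproteins of the same family that bind calcium and regulate crystal growth. In the disc these genes are known from the bony and calcified tissue next to the cartilage end plates, and several are not exclusive to bone, since osteopontin is also made by macrophages and osteoclasts and bone sialoprotein by hypertrophic chondrocytes.

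The libraries held 16076908 to 58943169 counts, of which ribosomal RNA took 28.1% to 60.2%. Levels are given as CPM, counts scaled to a common library total, after TMM scaling, which corrects for differences in composition between libraries. On this scale 3 counts correspond to 0.0431 CPM (db/db replicate 2) to 0.163 CPM (Con+Veh replicate 4), and *Bglap* in Con+Veh replicate 1, at 2 counts, was the only member value at or under this floor, which covers counting error only. STZ-HFD replicate 1 stood apart from its group with the lowest total and a TMM factor of 1.58 against 0.693 to 0.742 in the other STZ-HFD libraries. Disc markers were present, since the summed level of 8 nucleus pulposus and notochord genes was 115 to 1296 CPM and that of 9 cartilage and annulus fibrosus genes was 811 to 24414 CPM over the 14 libraries. Most of the first sum at both ends was *Cd24a*, at 88.1 CPM in db/+ replicate 1 and 833 CPM in Con+Veh replicate 2. The notochord gene *T* was at 12.1 and 306 CPM in these libraries, so the sum says little about the amount of nucleus pulposus. Other genes of bone-forming cells were present too, with *Col1a1*, the main collagen chain of bone but not exclusive to it, at 583 to 17990 CPM by library and *Sost*, the osteocyte secreted Wnt inhibitor, at 1.60 to 56.8 CPM.

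Of the members, 4 lie side by side on chromosome 5 of GRCm38. In order, *Dmp1* (ENSMUSG00000029307, chr5:104202613-104214102), *Ibsp* (ENSMUSG00000029306, chr5:104299171-104311469), *Mepe* (ENSMUSG00000053863, chr5:104325329-104338611) and *Spp1* (ENSMUSG00000029304, chr5:104435118-104441050) are all on the plus strand and span 238438 bases. *Bglap2* (ENSMUSG00000074486, chr3:88377736-88378699) and *Bglap* (ENSMUSG00000074483, chr3:88383501-88384464) are neighbours on the minus strand of chromosome 3 with 4801 bases between them. The others are apart, namely *Alpl* (ENSMUSG00000028766, chr4:137741733-137796384, minus strand), *Phex* (ENSMUSG00000057457, chrX:157162075-157415312, minus strand), *Sp7* (ENSMUSG00000060284, chr15:102356606-102367182, minus strand) and *Ank* (ENSMUSG00000022265, chr15:27466677-27594909, plus strand). The exonic length ranged from 471 bases (*Bglap2*) to 6291 bases (*Phex*), and all 10 are annotated as protein coding.

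The short osteocalcin genes are nearly the same sequence, which limits how their reads can be divided. Their coding sequences in GENCODE M21 are both 288 bases long and differ at 4 bases, shown here in capitals because only reads over such bases, or over the ends of the transcripts, tell the genes apart.
Bglap-201: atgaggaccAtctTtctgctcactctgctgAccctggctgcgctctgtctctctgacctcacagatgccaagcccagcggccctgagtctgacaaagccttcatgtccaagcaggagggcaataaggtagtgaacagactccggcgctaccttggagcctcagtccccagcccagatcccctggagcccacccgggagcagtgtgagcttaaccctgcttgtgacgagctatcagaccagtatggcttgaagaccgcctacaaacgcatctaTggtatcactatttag
Bglap2-201: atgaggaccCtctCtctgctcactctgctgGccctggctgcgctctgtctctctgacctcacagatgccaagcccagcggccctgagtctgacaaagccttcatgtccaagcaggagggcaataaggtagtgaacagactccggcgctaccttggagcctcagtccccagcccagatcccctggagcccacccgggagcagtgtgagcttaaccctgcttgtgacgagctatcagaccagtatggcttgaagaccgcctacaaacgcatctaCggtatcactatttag
Of the 341 stretches of 100 bases in the *Bglap* transcript, 56.3% also occur unchanged in the *Bglap2* transcript, and the longest shared run is 241 bases. The treatment of reads that match several genes is not given in the sources used here, so the split between *Bglap* and *Bglap2* is uncertain. Their neighbour *Bglap3*, whose coding sequence differs from *Bglap* at 13 bases, did not exceed 0.576 CPM in any library.

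**Figure D1:**
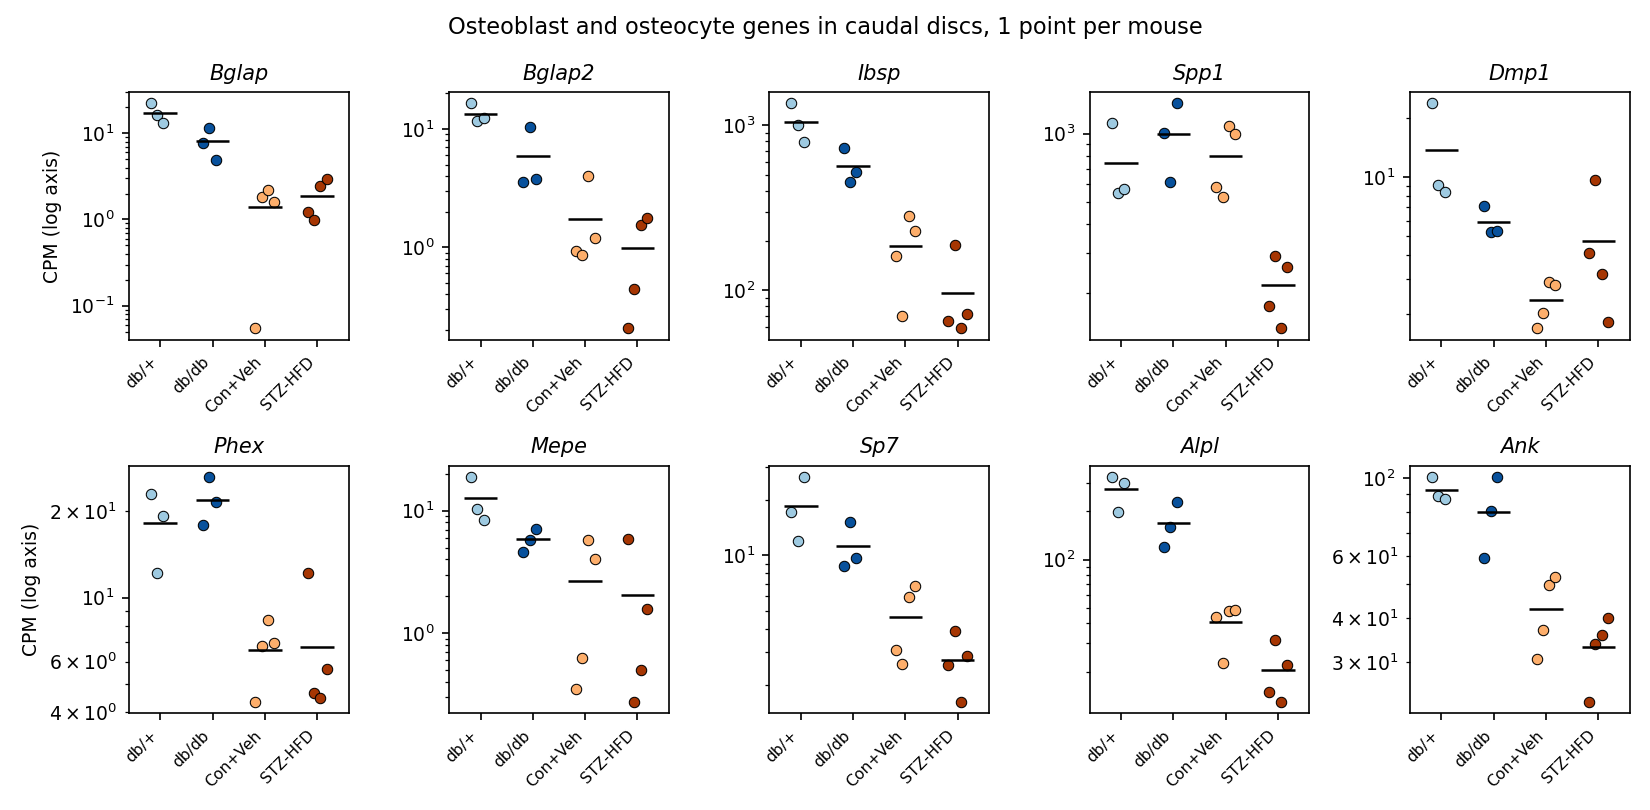
Level of each gene in each library in CPM on a log axis, with 1 point per mouse and a black line at the group mean (3 mice in db/+ and db/db, 4 in Con+Veh and STZ-HFD). In all, 9 of the 10 genes, all but Spp1, were higher in every db/+ mouse than in every Con+Veh mouse, and Spp1 alone fell clear of its control in STZ-HFD.

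For 9 of the 10 members, all but *Spp1*, the control groups of the cohorts differed more in level than diabetic mice and their controls did. All 3 db/+ libraries exceeded all 4 Con+Veh libraries for 9 of the 10 genes, the exception being *Spp1*, whereas 9.36% of all genes tested showed this. The ratio of the mean CPM of db/+ to that of Con+Veh was 12.2 for *Bglap*, 7.74 for *Bglap2*, 6.77 for *Alpl*, 5.84 for *Dmp1*, 5.65 for *Ibsp*, 4.68 for *Mepe*, 4.01 for *Sp7*, 2.74 for *Phex* and 2.18 for *Ank*, against a median of 0.977 over all genes tested. For *Spp1* the ratio was 0.936. For *Bglap*, *Ibsp*, *Sp7*, *Alpl* and *Ank* the lowest of the 6 libraries of the db cohort was above the highest of the 8 libraries of the other cohort. These are levels with no test. Other lists differed between the control groups in both directions. Summed levels were 14570 to 24414 CPM in db/+ and 1814 to 5393 CPM in Con+Veh for cartilage and annulus fibrosus markers, 1365 to 2026 and 396 to 844 CPM for tendon markers, and 404 to 682 and 141 to 267 CPM for osteoclast markers. They ran the other way for skeletal muscle markers (5100 to 9934 CPM in db/+ and 9260 to 12341 CPM in Con+Veh, with overlap), macrophage markers (123 to 172 and 179.8 to 323 CPM) and adipocyte markers (196 to 411 and 375 to 912 CPM, with overlap), and nucleus pulposus and notochord markers overlapped (115 to 640.5 and 169 to 1297 CPM). The ribosomal RNA share was 28.9% to 39.7% in db/+ and 45.8% to 60.2% in Con+Veh. The part of these in the gap was not tested. In bulk tissue a difference in the number of cells of a type and a difference in RNA per cell cannot be told apart.

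Per kilobase of exon, *Ibsp* and *Spp1* were the most abundant members in all 4 groups. In db/+ the mean was 509 ± 140 CPM per kilobase (SD, n = 3) for *Ibsp* and 453 ± 194 for *Spp1*, followed by *Alpl* at 68.3 ± 17.1, *Bglap2* at 28.6 ± 5.60, *Bglap* at 27.9 ± 7.46 and *Ank* at 25.6 ± 2.07. The remaining 4 genes were at 2.88 (*Phex*) to 7.47 (*Mepe*) CPM per kilobase. In STZ-HFD *Spp1* was at 132 ± 43.3 (n = 4) and *Ibsp* at 46.4 ± 29.7, and the other members were at 0.805 (*Sp7*) to 9.18 (*Ank*) CPM per kilobase. The mean level of *Ank* thus passed that of *Alpl* in both groups of the C57BL/6J cohort, at 11.7 ± 2.88 against 10.1 ± 3.02 CPM per kilobase in Con+Veh, a gap within their spread, while *Alpl* led in db/+ and db/db.

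The first comparison was whether discs of db/db mice, homozygous for the *Lepr* mutation, differ in these genes from discs of db/+ mice. No member was called in db/db against db/+, where a call needed an adjusted p (limma voomWithQualityWeights, Benjamini-Hochberg over the 16915 genes) under 0.05 and a log2 fold change of at least 1 in size. Over all genes 1.23% were called higher and 0.432% lower. Of the 10 members, 8 had a log2 fold change below 0 and 4 had an unadjusted p under 0.05 in limma, all lower, as did 3572 of all 16915 genes in either direction. DESeq2 called no member, and edgeR's quasi-likelihood test called none of all genes tested in this comparison, so its 0 says nothing of the members. The median log2 fold change of the members was -0.79, against -0.04 over all genes tested. The db/db libraries lay entirely below the db/+ libraries for 5 of 10 members, *Bglap*, *Bglap2*, *Ibsp*, *Dmp1* and *Mepe*, whereas 11.7% of all genes did so.

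Osteocalcin, the most abundant non-collagen protein that is particular to bone, had the lowest adjusted p-values of the 10 members here, neither of them past the threshold. *Bglap* measured 22.3, 16.1 and 13.3 CPM in db/+ replicates 1 to 3 and 7.80, 11.5 and 4.85 CPM in db/db. *Bglap2* measured 16.5, 11.7 and 12.3 CPM in db/+ and 3.59, 10.4 and 3.74 CPM in db/db. In both genes db/db replicate 2 was the highest of its group and still below every db/+ library. The log2 fold change was -1.15 ± 0.37 (SE) for *Bglap* (adjusted p = 0.0975) and -1.33 ± 0.39 for *Bglap2* (adjusted p = 0.0780), with 95% intervals of -1.92 to -0.38 and -2.16 to -0.50. Without 1 library it ranged from -1.47 to -0.83 for *Bglap* and from -1.86 to -1.07 for *Bglap2*. Without db/+ replicate 1, the highest library of its group in both genes, *Bglap* was at -0.91 (adjusted p = 0.247 in limma).

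The secreted phosphoproteins did not behave alike in this model. *Ibsp* measured 1364, 1006 and 789 CPM in db/+ and 732, 452 and 525 CPM in db/db, with a log2 fold change of -0.90 ± 0.46 (adjusted p = 0.268). *Dmp1*, an osteocyte protein that promotes mineral formation, measured 23.8, 9.13 and 8.39 CPM in db/+ and 7.14, 5.23 and 5.29 CPM in db/db, so db/+ replicate 1 was far above the others. That library was the highest of db/+ for every member but *Sp7*. The log2 fold change of *Dmp1* was -1.06 ± 0.37 (adjusted p = 0.125), and -0.57 without db/+ replicate 1. *Mepe*, an osteocyte protein whose fragments inhibit mineral formation, measured 18.9, 10.4 and 8.44 CPM in db/+ and 4.63, 5.73 and 7.12 CPM in db/db, with a log2 fold change of -1.04 ± 0.47 (adjusted p = 0.222), and -0.68 without db/+ replicate 1. For *Spp1* the groups overlapped. It measured 1116, 551 and 571 CPM in db/+ and 1009.7, 614 and 1359 CPM in db/db, and the 95% interval of its log2 fold change, -0.42 to 1.25 around 0.42, covered both directions (adjusted p = 0.578), and the value moved between 0.15 and 0.77 when 1 library was left out.

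The transcription factor and the enzymes overlapped between db/db and db/+. *Sp7*, which commits cells to the osteoblast fate, measured 17.2, 11.9 and 26.6 CPM in db/+ and 8.75, 15.2 and 9.71 CPM in db/db (log2 fold change -0.63 ± 0.31, adjusted p = 0.253). *Alpl* measured 329, 197 and 299.6 CPM in db/+ and 120.4, 161 and 227 CPM in db/db (-0.68 ± 0.34, adjusted p = 0.259). In both genes the highest db/db library lay above only 1 db/+ library, replicate 2. *Phex*, the endopeptidase of osteocytes whose loss causes phosphate wasting, measured 22.9, 12.2 and 19.2 CPM in db/+ and 17.9, 26.3 and 21.4 CPM in db/db (0.34 ± 0.26, adjusted p = 0.466). *Ank* measured 100.98, 88.9 and 87.3 CPM in db/+ and 59.5, 80.5 and 100.9 CPM in db/db (-0.23 ± 0.23, adjusted p = 0.608). Without 1 library the log2 fold change ranged from -0.97 to -0.38 for *Sp7* (lowest without db/+ replicate 2, highest without db/+ replicate 3), from 0.044 (without db/+ replicate 2) to 0.53 for *Phex* and from -0.41 to -0.034 (without db/db replicate 1) for *Ank*.

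Other tissues moved with this comparison. Of the 7 adipocyte markers, 4 were called higher in db/db, with *Retn* at a log2 fold change of 2.75, *Plin1* at 1.73 and *Adipoq* at 1.67, and the summed level of the list was 196 to 411 CPM in db/+ and 341 to 625 CPM in db/db. Of 11 skeletal muscle markers, *Myh1* was called lower (-1.66), and the summed level was 5100 to 9934 CPM in db/+ and 3317 to 5591 CPM in db/db. No nucleus pulposus or notochord marker was called, but 4 of 5 tested were below 0 (median -1.37). Their sum was 115 to 640 CPM in db/+ and 168 to 296 CPM in db/db. No cartilage or annulus fibrosus marker was called either, with 5 of 8 below 0 (median -0.48). These summed to 14570 to 24414 CPM in db/+ and 7044 to 15397 CPM in db/db. Fold changes also followed the GC content of the genes in db/db (Spearman rho across 16899 genes -0.43, a description, since genes are not independent replicates) and less so in STZ-HFD (-0.08), and the member genes ranged in GC from 39.6% (*Phex*) to 56.5% (*Alpl*). With the GC trend removed, the log2 fold change in db/db was nearer to 0 for *Bglap* (-0.85), *Bglap2* (-0.98), *Alpl* (-0.31), *Sp7* (-0.38), *Ank* (-0.11) and *Spp1* (0.15). It was farther from 0 for *Ibsp* (-1.11), and close to the value without that step for *Dmp1* (-1.01) and *Mepe* (-0.98). With the muscle score in the fit the log2 fold change was nearer to 0 for *Bglap* (-0.73), *Ibsp* (-0.51) and *Dmp1* (-0.50). It was farther from 0 for *Sp7* (-1.43) and *Alpl* (-1.09), and moved little for *Bglap2* (-1.38) and *Mepe* (-0.95). With the adipocyte score the values ran from -3.17 (*Bglap2*) to 0.09 (*Spp1*), in a fit that called no gene at all.

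**Figure D2:**
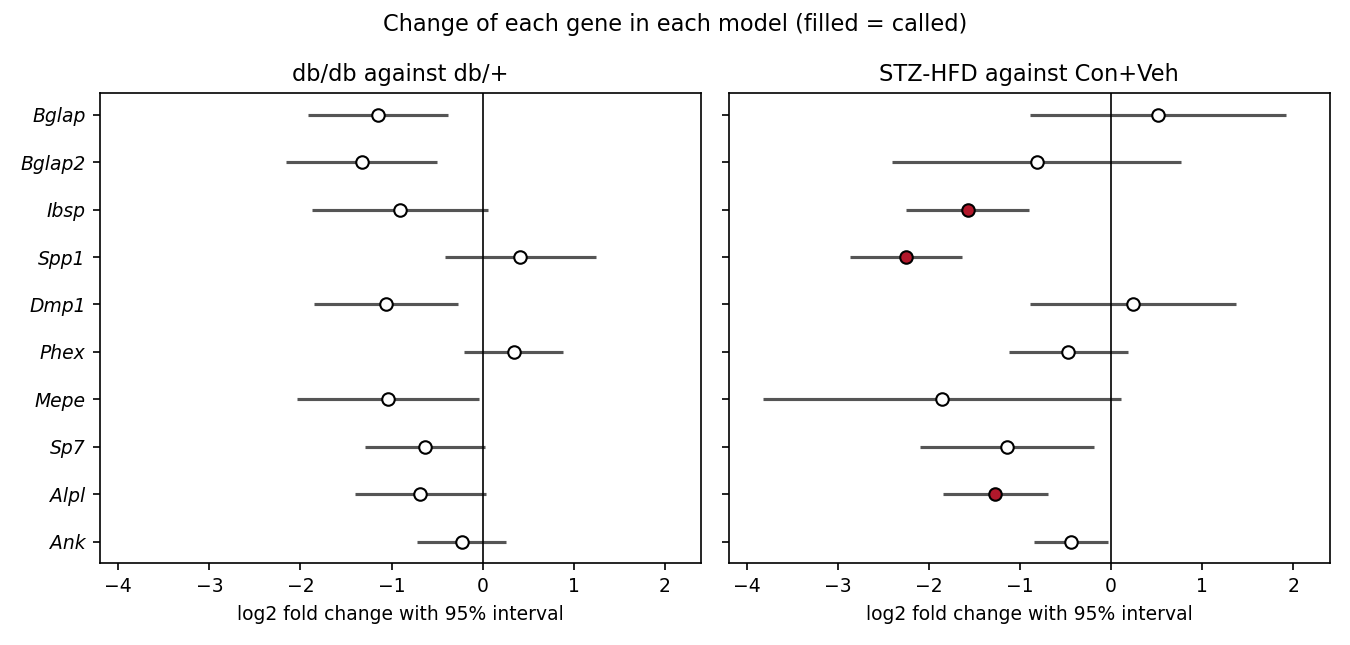
Log2 fold change of each gene with its 95% interval in db/db against db/+ (left) and in STZ-HFD against Con+Veh (right), where filled points are called. In all, 8 of the 10 points lie below 0 in each model, none is called in db/db, and Spp1, Ibsp and Alpl are called lower in STZ-HFD.

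The second comparison asked the same of STZ-HFD against Con+Veh. Of the 10 members, 3 were called lower, *Spp1*, *Ibsp* and *Alpl*, and none higher. Over all genes 1.31% were called lower and 1.3% higher. In all, 8 of the 10 had a log2 fold change below 0, and the median was -0.98 against -0.04 over all genes tested. Groups that did not overlap were found for 1 member, *Spp1*, while 2.77% of all genes lay entirely lower in STZ-HFD.

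*Spp1* showed the clearest change of any member. It measured 586, 528, 1079.6 and 993 CPM in Con+Veh replicates 1 to 4 and 175, 292, 139.7 and 261 CPM in STZ-HFD. Every STZ-HFD library was below every Con+Veh library, and every library of the db cohort, at 551 CPM or more, was above every STZ-HFD library. The group mean was 797 ± 280 CPM (SD, n = 4) in Con+Veh and 217 ± 71.4 CPM in STZ-HFD, a ratio of 0.272. The log2 fold change of the fit was -2.25 ± 0.29, with a 95% interval of -2.87 to -1.64 (adjusted p = 8.92e-04).

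*Ibsp*, which marks the onset of mineral formation, was called lower with groups that overlapped. It measured 162, 70.1, 283 and 229.9 CPM in Con+Veh and 64.9, 188, 58.8 and 72.2 CPM in STZ-HFD. STZ-HFD replicate 2 was above 2 of the 4 Con+Veh libraries, and Con+Veh replicate 2 was below 2 of the STZ-HFD libraries. The log2 fold change was -1.58 ± 0.32 (adjusted p = 0.0154), while the ratio of the mean CPM was 0.515. The fit gives each library a weight by its scatter about its group, from 0.274 for Con+Veh replicate 1 to 3.05 for Con+Veh replicate 3, whereas the ratio of means weights libraries equally.

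*Alpl* was called lower on the same terms. It measured 44.0, 22.6, 47.6 and 48.5 CPM in Con+Veh and 15.0, 31.7, 12.9 and 21.9 CPM in STZ-HFD. Only STZ-HFD replicate 2 reached into the range of the controls, above Con+Veh replicate 2. The log2 fold change was -1.27 ± 0.27, with a 95% interval of -1.85 to -0.70 (adjusted p = 0.0199), and the ratio of the mean CPM was 0.501.

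These 3 calls did not rest equally on the choices made. *Spp1* was called in 13 of 14 fits that left out 1 library and in 12 of 14 other alternatives, *Ibsp* in 10 of 14 and 7 of 15, and *Alpl* in 10 of 14 and 6 of 14. Every fit without a db/+ or db/db library, which lies outside this comparison, kept all 3 calls. The losses among these 14 fits thus all fell where a Con+Veh or STZ-HFD library was left out. Gene totals from transcripts are counted for *Ibsp* alone, since the transcripts analysed here hold 5.34% of the gene counts of *Spp1* and 0.623% of those of *Alpl*. Without Con+Veh replicate 3 no member was called (*Spp1* -2.02, adjusted p = 0.0564), and edgeR's quasi-likelihood test called none (*Spp1* -1.88, adjusted p = 0.0646). Calls fell over all genes at the same time, from 220 higher and 221 lower to 3 and 14 without Con+Veh replicate 3 and to 6 and 23 under edgeR. Leaving out Con+Veh replicate 4, STZ-HFD replicate 3 or STZ-HFD replicate 4 kept *Spp1* alone, with 4 and 14, 3 and 15, and 64 and 100 genes called over all. Without any 1 library, the log2 fold change stayed between -1.82 and -1.17 for *Ibsp* and between -1.37 and -0.96 for *Alpl*. Without STZ-HFD replicate 1, the library that stood apart, all 3 were called, with *Spp1* at -2.29.

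**Figure D3:**
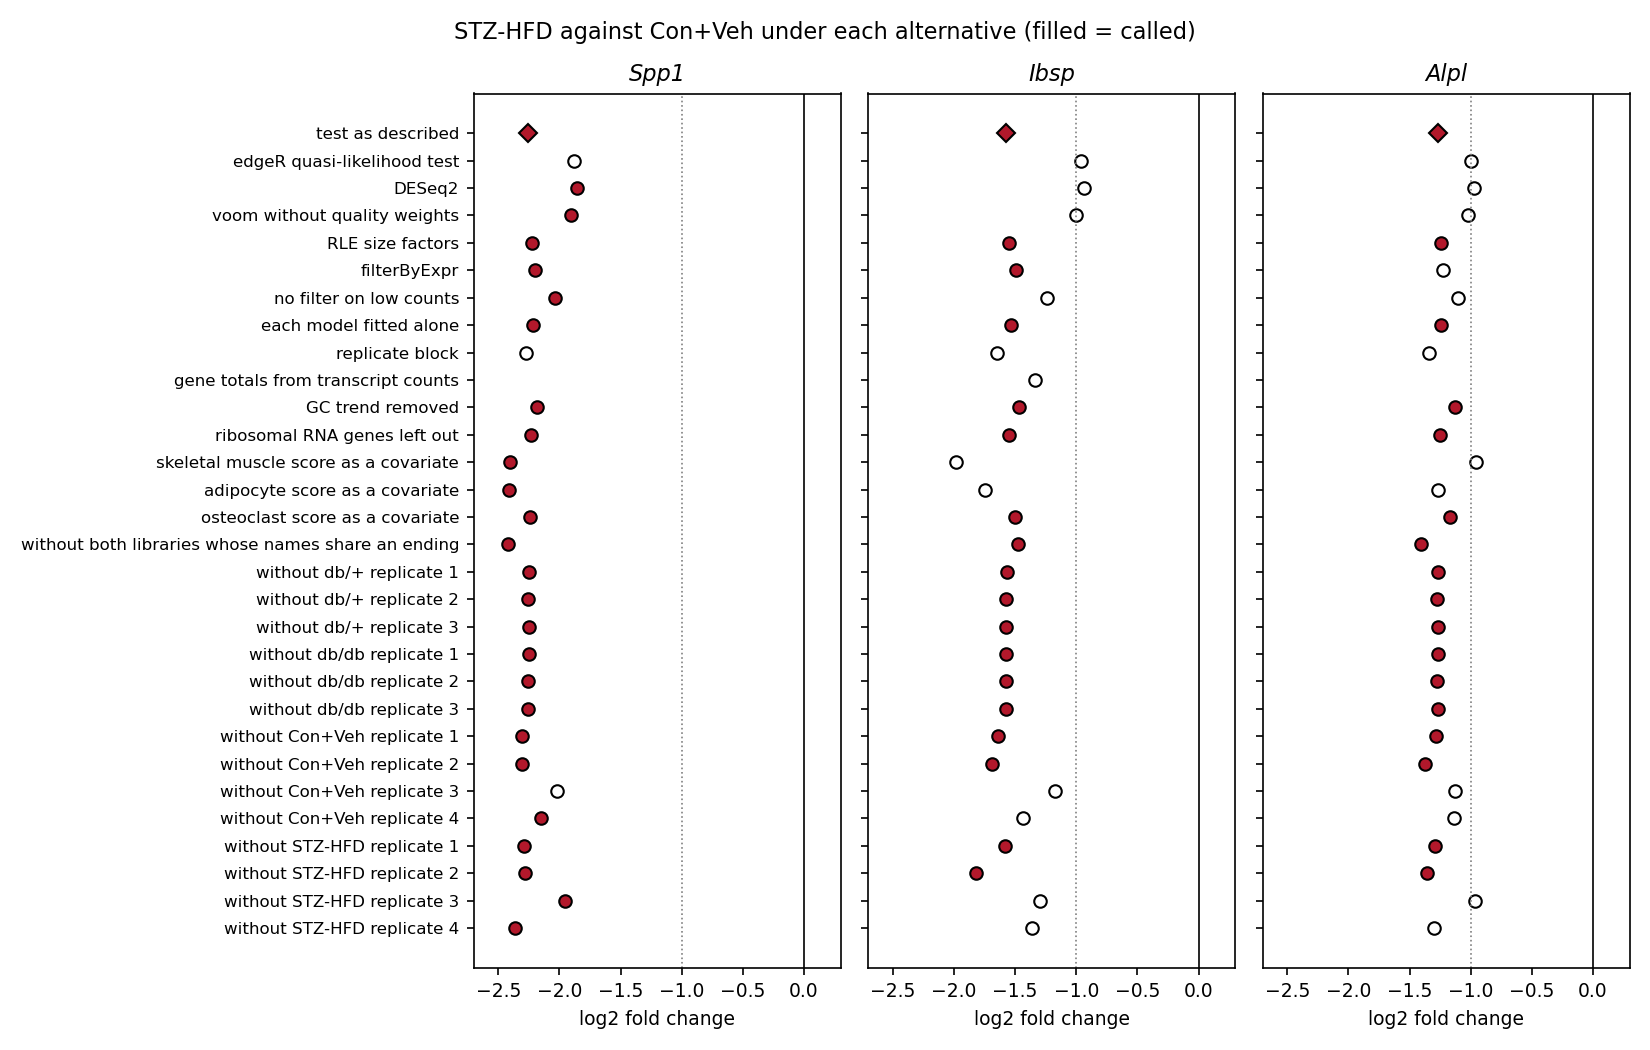
Log2 fold change of Spp1, Ibsp and Alpl in STZ-HFD against Con+Veh in the test as described (diamond) and under each alternative (circles, with none for Spp1 and Alpl from transcript counts), where filled symbols are called and the dotted line marks -1. All values are below 0, Spp1 stays between -2.42 and -1.85, and Ibsp and Alpl lose their call under more alternatives than Spp1 does.

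As these genes were called lower together, the 250 bases before the first base of their RefSeq transcripts (GRCm38.p6) are shown for them, with *Bglap* as a classic promoter of osteoblasts. Capitals mark ACCACA or its reverse complement TGTGGT, the core of the motif bound by RUNX factors such as RUNX2, the regulator of osteoblast fate.
Spp1 (chr5:104434861-104435110, plus strand): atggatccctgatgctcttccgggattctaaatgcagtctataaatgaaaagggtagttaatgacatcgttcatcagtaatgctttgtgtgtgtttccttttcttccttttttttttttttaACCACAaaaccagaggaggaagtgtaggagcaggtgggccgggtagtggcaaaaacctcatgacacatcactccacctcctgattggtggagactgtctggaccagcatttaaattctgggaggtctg
Ibsp (chr5:104299037-104299286, plus strand): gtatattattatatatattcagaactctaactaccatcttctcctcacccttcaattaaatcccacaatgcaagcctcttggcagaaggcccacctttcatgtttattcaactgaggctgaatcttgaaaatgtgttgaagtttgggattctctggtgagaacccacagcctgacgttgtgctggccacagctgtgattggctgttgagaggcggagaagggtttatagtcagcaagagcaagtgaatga
Alpl (chr4:137796385-137796634, minus strand): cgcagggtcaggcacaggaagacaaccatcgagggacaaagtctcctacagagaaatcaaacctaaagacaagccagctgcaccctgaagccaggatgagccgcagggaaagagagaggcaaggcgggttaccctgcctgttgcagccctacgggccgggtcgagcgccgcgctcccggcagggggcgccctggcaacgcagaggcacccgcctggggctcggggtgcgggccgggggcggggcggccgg
Bglap (chr3:88384467-88384716, minus strand): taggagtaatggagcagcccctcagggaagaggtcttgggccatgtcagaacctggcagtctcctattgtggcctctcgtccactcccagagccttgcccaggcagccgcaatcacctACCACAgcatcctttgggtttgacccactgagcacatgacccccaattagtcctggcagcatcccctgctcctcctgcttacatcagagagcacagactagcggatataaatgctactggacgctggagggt
RefSeq windows of 300 bases, from 250 before to 50 after the start, were given for 8 of the 10 members, 11 windows in all. Of the 11, 4, 1 each of *Bglap*, *Spp1*, *Dmp1* and *Mepe*, held ACCACA on either strand, as did 16.8% of 32851 such windows over all genes. The longer AACCACA, which contains it, was in 2 windows (*Spp1* and *Dmp1*) and in 5.27% of all windows. The match begins 129 bases before the start in *Spp1*. A match describes letters only, and in this respect *Spp1* differed from *Ibsp* and *Alpl*, whose windows held neither.

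The remaining phosphoproteins were low and scattered in the C57BL/6J cohort. *Dmp1* measured 1.68, 2.02, 2.91 and 2.82 CPM in Con+Veh and 4.11, 9.66, 3.20 and 1.81 CPM in STZ-HFD, where replicate 2 was the highest. Its log2 fold change was 0.24 ± 0.54 (adjusted p = 0.862), a direction that turned with the setting. *Mepe* measured 0.353, 0.623, 5.73 and 4.02 CPM in Con+Veh and 5.84, 0.275, 0.497 and 1.58 CPM in STZ-HFD, which is 8 to 142 counts per library. The groups covered the same range, and the 95% interval of the log2 fold change ran from -3.82 to 0.11 (adjusted p = 0.308). Without any 1 library the log2 fold change ranged from -2.44 to -0.64, and over the other alternatives from -2.88 to -0.056. The ratio of the mean CPM was 0.763.

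Osteocalcin was low in this cohort, at 2 to 98 counts per library. *Bglap* measured 0.0543, 1.81, 2.21 and 1.58 CPM in Con+Veh and 1.23, 0.997, 2.42 and 2.91 CPM in STZ-HFD. *Bglap2* measured 0.924, 0.852, 3.99 and 1.19 CPM in Con+Veh and 0.206, 0.447, 1.55 and 1.75 CPM in STZ-HFD. Neither gene separated the groups. Without any 1 library the log2 fold change of *Bglap* ranged from 0.12 to 1.23. The 95% intervals of the log2 fold change were -0.89 to 1.92 for *Bglap* (adjusted p = 0.743) and -2.41 to 0.77 for *Bglap2* (adjusted p = 0.620). The log2 fold change measured in db/db lay within this interval for *Bglap2* and below it for *Bglap*, and the difference between the models was called for neither.

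*Sp7* measured 3.10, 2.60, 5.97 and 6.84 CPM in Con+Veh and 2.55, 3.92, 1.62 and 2.85 CPM in STZ-HFD. The log2 fold change of -1.14 ± 0.45 had an unadjusted p of 0.0212 in limma and did not pass the adjustment (adjusted p = 0.182). This value ranged from -1.32 to -0.79 without any 1 library, and from -1.36 to -0.28 over the other alternatives. *Ank* measured 30.5, 37.0, 49.7 and 52.4 CPM in Con+Veh and 23.1, 33.7, 35.7 and 40.1 CPM in STZ-HFD, a shift of -0.44 ± 0.19 that overlapped (adjusted p = 0.241). *Phex* measured 4.35, 6.77, 8.37 and 6.95 CPM in Con+Veh and 12.2, 4.68, 4.50 and 5.65 CPM in STZ-HFD. Its highest value came from the library that stood apart, and its log2 fold change was -0.47 ± 0.31 (adjusted p = 0.461), while the ratio of mean CPM was 1.02 and the fold change was 0.032 under edgeR and 0.058 under DESeq2, so its direction was not settled.

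Markers of other tissues moved in STZ-HFD as well. Of 11 skeletal muscle markers, 5 were called higher, led by *Myh2* (1.71), *Pvalb* (1.59) and *Acta1* (1.46), with a summed level of 9260 to 12341 CPM in Con+Veh and 9799 to 26959 CPM in STZ-HFD. Of the 9 cartilage and annulus fibrosus markers, 5 were called lower, led by *Prg4* (-2.67), *Col2a1* (-1.84) and *Hapln1* (-1.68), with a summed level of 1814 to 5393 CPM in Con+Veh and 811 to 1510 CPM in STZ-HFD. Of cells that also make osteopontin, 2 of 10 macrophage markers were called lower, *Cd68* (-1.63) and *Lyz2* (-1.02), with a summed level of 179.8 to 323 CPM in Con+Veh and 124 to 204 CPM in STZ-HFD. All 10 had a log2 fold change below 0 in the weighted fit (median -0.82). The mean CPM was nevertheless higher in STZ-HFD than in Con+Veh for *Adgre1* (3.03 against 2.31) and *Fcgr1* (1.44 against 0.808). An unadjusted p under 0.05 in limma was found for 5 of the 10 macrophage markers, beside 3025 of all 16915 genes. None of the 10 osteoclast markers tested was called (summed level 141 to 267 CPM in Con+Veh and 83.0 to 199 CPM in STZ-HFD), and 1 had an unadjusted p under 0.05 in limma. Of the 5 hypertrophic chondrocyte markers, *Sox9*, a factor of chondrocytes in general, was called lower (-1.53), whereas the defining marker *Col10a1* was at 0.0093 (adjusted p = 0.996 in limma), and the list summed to 471 to 762 CPM in Con+Veh and 395 to 717 CPM in STZ-HFD. Most of that sum was *Mef2c* (309 to 569 CPM in Con+Veh and 333 to 645 CPM in STZ-HFD), so it says little about *Col10a1*. *Fmod* (-1.58) and *Mkx* (-1.16) of the 5 tendon markers were called lower. None of the 7 adipocyte markers was called, but all 7 had a log2 fold change above 0 (median 0.64), 3 had an unadjusted p under 0.05 in limma, and their sum was 375 to 912 CPM in Con+Veh and 785 to 990.1 CPM in STZ-HFD. The 9 bone marrow granulocyte markers summed to 0.713 to 18.2 CPM over all 14 libraries. With the muscle score or the adipocyte score in the fit *Spp1* was still called and *Ibsp* (-1.98 and -1.75) and *Alpl* (-0.95 and -1.27) were not, in fits that called 8 genes higher and 51 lower, and 3 higher and 33 lower, over all genes. With the osteoclast score all 3 were called. The part of the cartilage and macrophage markers in the change of *Spp1* was not tested.

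The third comparison set both responses against each other. *Spp1* was the only one of the 10 members whose response differed between the models by the test of the difference itself, whereas 0.816% of all genes were called higher in db/db than in STZ-HFD by this test. The difference was 2.67 ± 0.49 on the log2 scale (adjusted p = 0.0201), with a 95% interval of 1.63 to 3.71. It was called in 10 of 14 fits without 1 library and in 7 of 13 other alternatives, over all of which the adjusted p ranged from 0.00404 to 0.167 and the difference from 2.29 to 3.02. For *Bglap*, whose values were lower in db/db and not in STZ-HFD, the difference was -1.66 ± 0.76 and was not called (adjusted p = 0.266).

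Ratios of genes within a library do not depend on the scaling, and they were computed after the values had been seen, so they are given with no test. The ratio of *Spp1* to *Ibsp* counts was 0.818, 0.548 and 0.724 in db/+ and 1.38, 1.36 and 2.59 in db/db. It was 3.61, 7.52, 3.82 and 4.32 in Con+Veh and 2.69, 1.56, 2.37 and 3.61 in STZ-HFD. In db/db every library was above every db/+ library, and in STZ-HFD the ratio tended to the lower side of Con+Veh with 1 library of each at about 3.61. The ratio of *Alpl* to *Ank*, the enzyme that removes pyrophosphate and the transporter that supplies it, was 3.26, 2.22 and 3.43 in db/+ and 2.02, 1.997 and 2.25 in db/db, where db/db replicate 3 lay just above db/+ replicate 2. It was 1.44, 0.611, 0.957 and 0.925 in Con+Veh and 0.649, 0.941, 0.362 and 0.547 in STZ-HFD, and these groups overlapped.

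**Figure D4:**
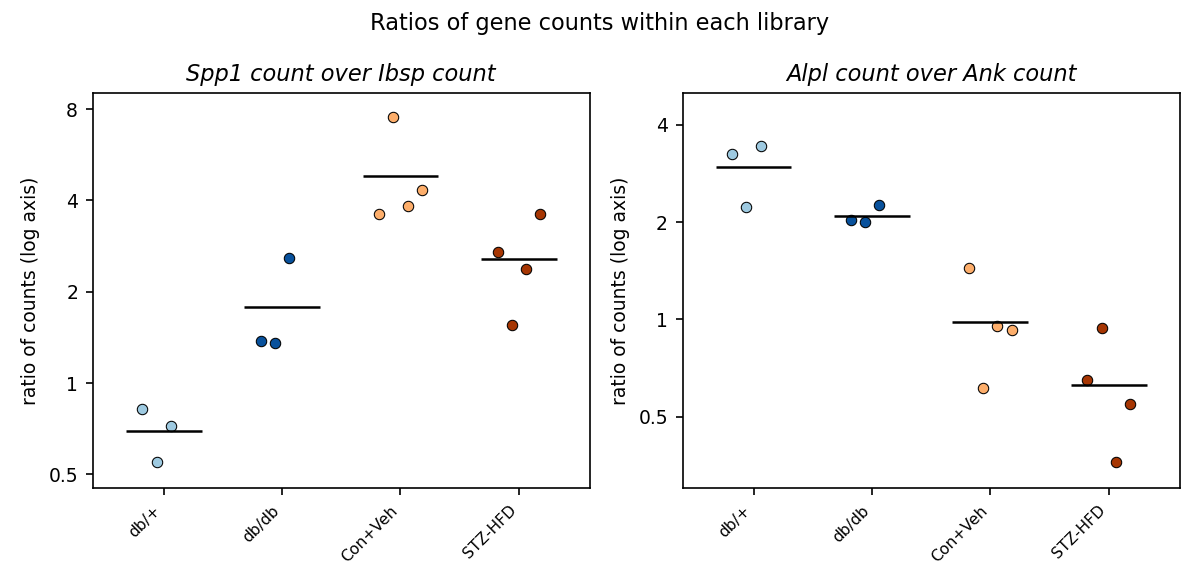
Ratio of Spp1 to Ibsp counts (left) and of Alpl to Ank counts (right) within each library on a log axis, with 1 point per mouse and a line at the group mean. The Spp1 to Ibsp ratio is below 1 in all 3 db/+ mice and between 1.36 and 7.52 in the other 11, and the Alpl to Ank ratio is highest in the db cohort.

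Genes of the same cells and of the same chemistry were read from 3 lists. Of 19 other genes of bone-forming cells, 18 were tested. None was called in db/db, where 5 had an unadjusted p under 0.05 in limma, beside 3572 of all 16915 genes, and the median log2 fold change was -0.34. As above, edgeR called no gene at all in this comparison. In STZ-HFD 17 of the 18 had a log2 fold change below 0 with a median of -0.79, 8 had an unadjusted p under 0.05, beside 3025 of all 16915 genes, and 1 was called, *Sparc*, the collagen-binding matrix protein osteonectin (-1.03 ± 0.27, adjusted p = 0.0412), a call lost under edgeR, without Con+Veh replicate 2 and STZ-HFD replicate 4 together, whose library names share an ending, and with the GC trend removed. *Runx2*, chosen for naming after its values were seen, measured 52.3, 39.9, 43.1 and 45.4 CPM in Con+Veh and 17.7, 26.4, 26.1 and 27.1 CPM in STZ-HFD, so the groups did not overlap, yet it was not called (-0.78, adjusted p = 0.0897). The median over all genes tested was -0.04 in both models.

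Of 8 osteocyte genes, 7 were tested and none was called in either model, with 1 in each at an unadjusted p under 0.05 in limma and none called by edgeR, which called no gene in db/db and 29 of all genes in STZ-HFD. Their median log2 fold change was -0.03 in db/db and -0.65 in STZ-HFD. *Cd44*, the hyaluronan and osteopontin receptor, had an adjusted p of 0.0237 in STZ-HFD (limma) with a log2 fold change of -0.97, just under the minimum. Of 9 genes that handle phosphate and pyrophosphate, 6 were tested. None was called in db/db, where none had an unadjusted p under 0.05 in limma and edgeR called no gene at all. In STZ-HFD 2 were called lower, beside 1.31% of all genes, *Mgp*, the matrix Gla protein that inhibits calcification of cartilage (-1.39 ± 0.31, adjusted p = 0.0216), and *Nt5e*, the ectonucleotidase CD73 that makes adenosine (-1.13 ± 0.24, adjusted p = 0.0204). The 2 calls became 0 under edgeR and 1 without Con+Veh replicate 2 and STZ-HFD replicate 4 together. *Xpr1*, the phosphate exporter, was at 0.65 with an unadjusted p of 0.0123 in limma and was not called. *Enpp1*, which makes extracellular pyrophosphate, had an adjusted p of 0.0427 in limma and a log2 fold change of -0.80, under the minimum.

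The members followed each other only in part. Likeness was measured as the root mean square difference of log2 CPM after each gene was centred on its mean over the 14 libraries, so 0 means the same pattern. The gap between the cohorts enters this measure, and its part in any likeness was not tested. *Ibsp* and *Alpl* were the closest pair at 0.44, and *Sp7* was closest to the mean of the other members at 0.41. *Bglap*, at 1.28, and *Mepe*, at 1.17, were the farthest from it. The 8 other genes nearest to the mean of the members were *Loxl4* (0.37), *Stc2* (0.38), *Gpc6* (0.40), *Scube1* (0.40), *Lgals3bp* (0.40), *Rab11fip4* (0.42), *Neo1* (0.44) and *Fxyd3* (0.44). The nearest gene to *Alpl* was *Col1a1* (0.37) and that to *Bglap2* was *Sost* (0.84), and *Spp1* was nearest to *Gpx3* (0.36). For the rest it was *Pdgfrl* for *Ibsp* (0.44), *Ifitm10* for *Dmp1* (0.51), *Tenm3* for *Phex* (0.32), *Fam180a* for *Mepe* (0.57), *Eps8l2* for *Sp7* (0.29), *Ppt1* for *Ank* (0.18) and *1700125H03Rik* for *Bglap* (0.75).

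Estimated counts per transcript gave a second view of the short genes. *Bglap-201* held 95.2% to 98.5% of the *Bglap* estimate in each group, and the remainder fell on a transcript that retains an intron. *Bglap-201* was at 388 to 511 estimated counts in db/+ and 152 to 363 in db/db, and *Bglap2-201* at 320 to 434 in db/+ and 123 to 338 in db/db, so the db/db ranges reached into those of db/+ for *Bglap2* only before any scaling for depth. In Con+Veh and STZ-HFD neither exceeded 57.9 estimated counts in any library. *Sp7-202* held 80.4% of the *Sp7* estimate in db/+, 70.7% in db/db, 71.3% in Con+Veh and 96.6% in STZ-HFD, and in STZ-HFD the other coding form *Sp7-201* had at most 2.82 estimated counts in a library. Some transcripts of *Alpl*, *Spp1* and *Phex* were not analysed here, so no usage is given for these genes.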

How the data were processed

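RNA of pooled caudal discs was sequenced from 14 mice after amplification of low-input cDNA, on an Illumina NovaSeq X Plus and in 1 labelled batch. The authors aligned reads with STAR 2.7.9a1 to an Ensembl annotation of GRCm38, counted reads per gene with featureCounts 2.0.32 and deposited whole-number counts without normalization. They also deposited estimated counts per transcript from Salmon 1.5.23 (versions as in the submitters' processing notes), which were summed per gene and rounded for 1 alternative. Whether counting used strand is not given in the sources used here. The gene table has 55774 lines, of which 287 repeat a gene with identical values and were used once.

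With R 4.3.3, edgeR 4.0.16 (TMM), limma 3.58.1 and DESeq2 1.42.0, the filter asked for more than 1 CPM in 3 or more libraries, and voomWithQualityWeights was fitted over all 14 libraries with a mean for each group, as the study's methods name it. P-values were adjusted by Benjamini-Hochberg over 16915 genes. Each label names a separate mouse. Groups and replicates were taken from the labels. No library repeated another. The tests were tried on simulated counts, and no outcome of that trial is used here. Depth was 16076908 to 58943169 counts, so 3 counts are 0.0431 to 0.163 CPM after TMM scaling. The alternatives were other tests, filters, scalings, covariates and libraries left out. Named genes are the members, up to 3 called genes per list and model with the largest change, and the nearest genes by root mean square difference (prior count 2). Other genes named without a call, outside this rule, are *Runx2*, *Cd44*, *Xpr1*, *Enpp1*, *Col10a1*, *Mef2c*, *Bglap3*, *Cd24a*, *T*, *Adgre1* and *Fcgr1*. The members and lists were chosen with earlier results of these data known.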

Additional observations from a re-analysis of the deposited data

Results flagged for a closer look

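Among the 20 groups of 4 libraries tested (10 genes in Con+Veh and in STZ-HFD), 3 held a library apart from the others by more than Dixon's 95% critical value, where chance gives about 1 in 20. *Ibsp* was at 188 CPM in STZ-HFD replicate 2, against 58.8 to 72.2 CPM in the other 3. *Bglap2* was at 3.99 CPM in Con+Veh replicate 3, against 0.852 to 1.19 CPM in the other 3. *Phex* was at 12.2 CPM in STZ-HFD replicate 1, against 4.50 to 5.65 CPM in the other 3, and this is the library with the lowest total count.

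The response of *Spp1* differed between the models by the interaction term of the limma fit, by 2.67 on the log2 scale (adjusted p = 0.0201, and 0.00404 to 0.167 over the alternatives), with values that were lower in 4 of 4 STZ-HFD libraries than in any Con+Veh library and that overlapped in db/db.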

How the results depend on the processing

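The count of members called lower in STZ-HFD (3) became 0 under edgeR's quasi-likelihood test and the replicate block, and 1 (*Spp1*) under DESeq2, voom without quality weights, no filter on low counts, gene totals from transcript counts (partial for *Spp1* and *Alpl*, so not informative on their calls) and the muscle or adipocyte score, and it ranged from 0 to 3 when 1 library was left out. The count was 2 with filterByExpr, another filter on low counts. Over all genes in STZ-HFD, the replicate block called 2 higher and 4 lower, and voom without quality weights called 3 and 16. The 1 member whose response was called different between the models became 0 under edgeR, voom without quality weights, the replicate block, removal of the GC trend and either score, and 0 to 1 without 1 library, while the *Spp1* difference stayed between 2.29 and 3.02. In db/db the count of 0 called lower became 4 with the replicate block (*Bglap* -1.29, *Bglap2* -1.65, *Dmp1* -1.35, *Mepe* -1.40), a fit that called 796 genes higher and 688 lower over all genes. Deviations of same-numbered mice from their group means correlated at -0.28 to 0.19 in the db cohort and -0.26 to -0.04 in the other. For mice with different numbers the ranges were -0.28 to 0.45 and -0.17 to 0.26. With only 3 and 4 same-numbered pairs, these values cannot decide whether the number is a pairing. Of the other lists, *Sparc* lost its call under edgeR, without both libraries whose names share an ending and without the GC trend (0 each), phosphate and pyrophosphate genes went from 2 to 0 under edgeR and to 1 without both libraries, and without both 1 bone-forming gene was called higher in db/db and 1 osteocyte gene lower in STZ-HFD.

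Signs turned for uncalled members alone: in db/db *Phex* (-0.054 without the GC trend, -0.17 and -0.10 with the muscle and adipocyte scores) and *Alpl* (0.55 from transcripts, a partial total); in STZ-HFD *Bglap* (-0.32, adipocyte score), *Bglap2* (0.20 without Con+Veh replicate 3, from -1.38 to 0.20 without 1 library), *Dmp1* (-0.30 from transcripts, -0.29 and -0.14 with the muscle and adipocyte scores, -0.16 without STZ-HFD replicate 2, from -0.16 to 0.88 without 1 library) and *Phex* (0.032 under edgeR, 0.058 under DESeq2, 0.92 from transcripts, a partial total, 0.22 with the muscle score). The causes were not tested. Without a filter the median of all genes moved to -0.36 in STZ-HFD and -0.18 in db/db. At a prior count of 0.5 all 8 genes nearest to the mean were shared, and 8 of the 10 members had the same nearest gene. Groups of 3 or 4 mice limit what could be called, as do low counts of *Bglap*, *Bglap2* and *Mepe* in the C57BL/6J cohort, at 2 to 142 per library.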
